A study of Mus musculus with 14 samples.

Results

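The cells described here were sorted from the mouse aorta-gonad-mesonephros region (AGM) as cells passing through the endothelial-to-haematopoietic transition (EHT). They carried the labels Cdh5+ Gfi1+ Gfi1b- c-kit+, came from ICR embryos with the genotype label Gfi+/tomato/ Gfi1b+/GFP, and were taken at embryonic day 10 (E10, 28 to 32 somite pairs) or E11 (more than 40). Of 1121 single cells deposited in the 2 stage tables, 237 were EHT cells, chosen by the population named in their column names: 191 at E10 and 46 at E11. The E10 cells came in 3 sorted sets, p10 (40 cells), p12 (87) and p24 (64), and the E11 cells in 1 set, p13. The column names called p10 and p12 late E10, gave p24 a day between E10 and E11, and called p13 late E11. The published methods describe pooled AGMs for sorts of cluster cells and do not say how many embryos gave the EHT cells. Each stage is 1 sample, and the sets are not replicates. Intervals are exact 95% intervals, and they cover counting error alone, not differences between embryos.

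Definitive blood stem and progenitor cells arise in the dorsal aorta when some endothelial cells of its wall, the haemogenic endothelium, lose endothelial features, round up and join clusters in the lumen. Cells that have switched on *Gfi1* and c-kit but not yet *Gfi1b* are placed by this sort between endothelium and cluster. The study profiled these EHT cells beside haemogenic endothelium (HE; same strain and genotype, Cdh5+ Gfi1+ Gfi1b- c-kit-), intra-aortic haematopoietic cluster cells (IAHC; wild-type C57BL/6, c-kit+ CD31+) and yolk sac cells (YS; wild-type C57BL/6, c-kit+). The question here is how EHT cells of the later day differed from those of the earlier one, and whether the other populations differed in the same way.

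The 2 stages reached the tables at different depths and with different genes listed. Each E10 cell held 3000 transcripts and each E11 cell 5000, where the published methods give 5000 for the sequenced cells. Both tables listed 19322 genes in common. The E11 table listed 102 more genes, each with a name that begins with *Rpl* or *Rps* (most encode ribosomal proteins, and some, such as *Rps6ka1*, kinases of a ribosomal protein), and these took 18.9% (18.8 to 19.1) of the transcripts of E11 EHT cells. No gene with such a name was listed at E10, and whether such genes were removed before or after scaling is not stated. Bringing E11 from 5000 to 3000 transcripts (a factor of 0.6, the full-table scale) therefore left the shared genes with less than their E10 share. The median log2 ratio of E11 to E10 over genes past the filter was −0.30 on this scale. Scaling on the shared genes alone (a factor of 0.740, the shared-gene scale) put it at −0.02. Each gene below is given with both log2 values, the full-table value first, unless the shared-gene scale alone is named. For EHT cells a full-table value near −0.30 means no change relative to the other genes.

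The sort markers and cell-type markers show what was being compared. *Cdh5*, which encodes the endothelial cadherin, averaged 2.31 transcripts per cell (1.98 to 2.67) at E11 and 2.10 (1.90 to 2.32) at E10 (log2 0.13 and 0.42). *Kit*, the stem cell factor receptor, averaged 0.991 (0.781 to 1.24) at E11 and 1.29 (1.13 to 1.46) at E10 (−0.35 and −0.07), with 1.00, 1.22 and 1.56 in p10, p12 and p24. *Gfi1*, the repressor whose reporter was sorted on, stood at 0.874 at both stages (0.00 and 0.27). *Gfi1b*, whose reporter was sorted against, stood at 0.0913 and 0.131 (−0.27 and −0.12). Averaged over cells, the sort markers thus differed little between the days. Among cells with more endothelial transcripts *Kit* was lower at E11, from very few transcripts, as given with those cells. Markers of erythroid cells summed to 0.0391 transcripts per cell at E11 and 0.0419 at E10, and those of megakaryocytes to 0.117 and 0.0942. Mesenchymal markers gave 0.261 and 0.188. Few cells of those types were therefore in either group, while macrophage markers were more abundant at E11 and are treated separately. No doublet caller was run.

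A minority of genes changed by a factor of 2 or more, with 0.1 transcripts per cell added to both means. On the full-table scale 3854 genes passed the filter of 0.2 transcripts per cell in either stage, of which 58 (1.5%) were higher at E11 and 122 (3.17%) lower. Against each of the 3 E10 sets in turn, 38 (0.986%) were higher and 34 (0.882%) lower. On the shared-gene scale 4194 passed, and the split turned around: 118 higher (2.81%) against 47 lower (1.12%), with 72 (1.72%) and 14 (0.334%) against each set. The genes that stood out under both scales were 58 higher and 47 lower, and those against each set 38 and 14. Sets of the E10 stage also differed, with p24 named for a later day than p10 and p12. Of the 3854 genes, 122 (3.17%) passed the fold between p10 and p12, 122 between p10 and p24, and 47 (1.22%) between p12 and p24. E11 against a single E10 set gave 373 (p10), 248 (p12) and 239 (p24), so the stages differed more than the sets of E10 did. Stage, table, depth and sorted set change together here, and their parts cannot be told apart. *Xist*, the 1 member of a sex-linked list past the filter, gave log2 0.69 and 0.96. Whether the mixture of embryo sexes differed between the days was not tested.

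**Figure D1:**
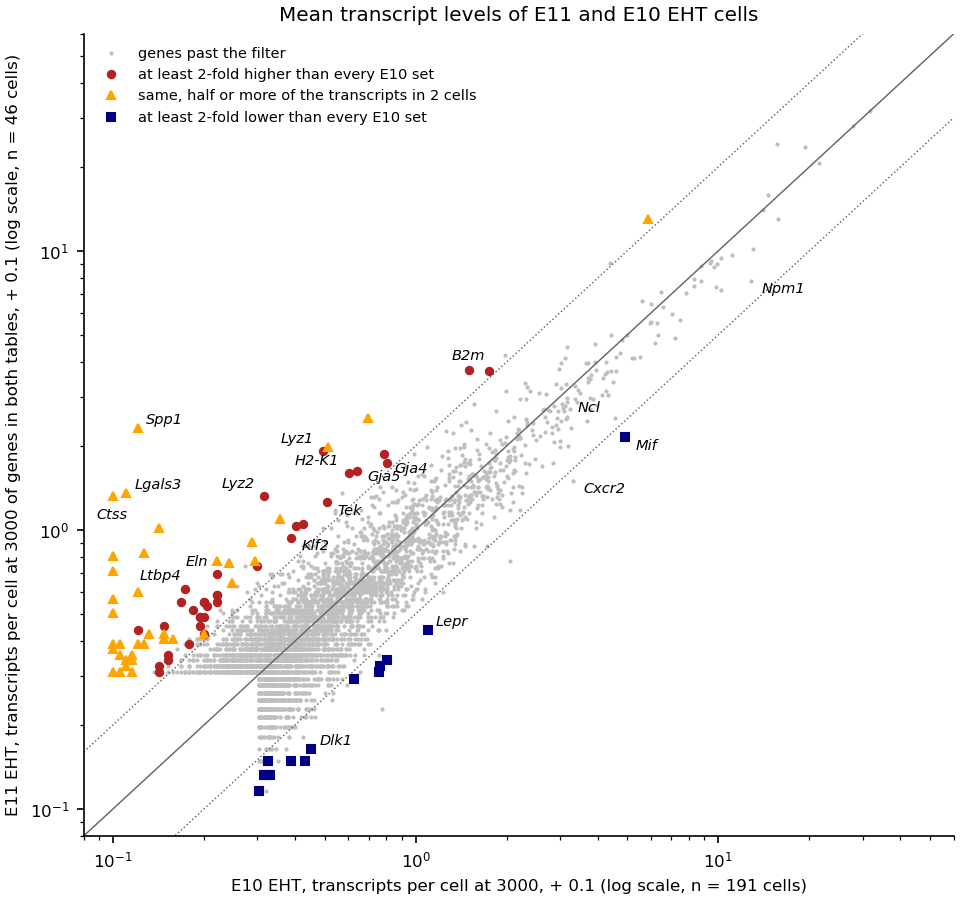
Mean transcripts per cell of each gene in E10 and E11 EHT cells, E11 on the shared-gene scale. Genes at least 2-fold higher (circles) or lower (squares) against each of the 3 E10 sets are coloured, triangles mark higher genes with at least 50% of their E11 transcripts in 2 cells, and dotted lines mark a factor of 2. The genes higher at E11 include vascular genes (*Gja5*, *Gja4*, *Tek*) and macrophage-type genes, and those lower include *Mif* and *Lepr*.

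Arterial genes were higher at E11. Arterial identity and Notch signalling mark the endothelium of the dorsal aorta from which blood cells emerge, and the arterial connexins, Notch ligands and their targets are its usual signature. *Gja5*, which encodes connexin 40, averaged 1.24 transcripts per cell (1.00 to 1.51) at E11 and 0.4, 0.529 and 0.641 in p10, p12 and p24 (log2 1.07 and 1.35). *Gja4*, which encodes connexin 37, averaged 1.43 (1.18 to 1.73) against 0.5, 0.793 and 0.656 (0.97 and 1.25). The Notch ligand *Jag1* averaged 0.391 (0.264 to 0.559) against 0.125, 0.103 and 0.141 (1.16 and 1.40). With E11 cells thinned at random to the E10 depth over the shared genes, *Gja5* was detected in 43.5% of E11 and 23% of E10 cells, *Gja4* in 41.3% and 26.2%, and *Jag1* in 26.1% and 8.90%. A larger share of cells thus carried these transcripts on the later day, at uneven levels. In the 14 E11 cells with more endothelial than haematopoietic transcripts *Gja5* averaged 3.63 on the shared-gene scale, against 0.564 in the other 32. *Gja4* averaged 4.19 and 0.658 there, and *Jag1* 1.28 and 0.117. The same order held at E10. The Notch targets *Hey2* (0.98 and 1.20) and *Hey1* (0.30 and 0.53) and the arterial ephrin *Efnb2* (0.78 and 1.05) did not reach the fold on the full-table scale, nor did *Hey1* on the shared-gene scale. Of the list, 2 of 14 members past the filter were at least 2-fold higher on the full-table scale (1.5% of all genes) and 5 of 15 on the shared-gene scale (2.81%), with 0 lower. The Notch ligand *Dll4* (0.04 and 0.26) and the receptor *Notch4* (−0.07 and 0.14) moved little. The 22 arterial and Notch genes of the list summed to 7.68 transcripts per cell (7.07 to 8.33) at E11 and 4.64 (4.34 to 4.96) at E10, with 3.65, 5.08 and 4.67 in the 3 sets. The 15 members past the filter on the shared-gene scale had a median log2 ratio of 0.67, and the 14 on the full-table scale 0.41. List members pass the filter through the stage where they are higher, which bears on medians and counts of members but not on the sums, which use each member.

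Receptors and flow-responsive genes of the endothelium followed. The angiopoietin receptor *Tek* averaged 0.939 (0.735 to 1.18) at E11 and 0.275, 0.460 and 0.422 in the E10 sets (log2 1.03 and 1.31), and was detected in 58.7% of thinned E11 cells and 28.8% of E10 cells. *Ptprb*, the endothelial phosphatase that restrains that receptor, averaged 0.770 against 0.150, 0.391 and 0.344 (1.03 and 1.31). *Klf2*, a transcription factor induced by shear stress, averaged 0.678 (0.507 to 0.889) against 0.275, 0.253 and 0.344 (1.00 and 1.27). *Edn1*, which encodes the vasoconstrictor endothelin 1, averaged 0.352 against 0.0500, 0.126 and 0.109 (1.14 and 1.38). *Klf4* (0.78 and 0.96) and the nitric oxide synthase *Nos3* (0.59 and 0.84), also responsive to flow, did not reach the fold, and 2 of 7 members past the filter did on each scale (1.5% and 2.81% of all genes). The receptor component *Ramp2* averaged 3.35 against 1.60, 1.69 and 2.28 (0.81 and 1.10). The rise was not shared by each endothelial gene. The sialomucin *Emcn* (−1.28 and −1.11), more typical of veins and capillaries, was lower. The TGF-β co-receptor gene *Eng* (−0.48 and −0.24) and the adhesion gene *Pecam1* (0.31 and 0.59) stayed within the 2-fold bound, and the transcription factor gene *Sox17* (0.76 and 1.02) passed it on the shared-gene scale alone. The median was 0.59 on the full-table scale and 0.84 on the shared-gene scale for the flow-responsive list, 0.31 and 0.59 for cell junctions, and 0.27 and 0.49 for general endothelial genes. Each of these lists thus lay above the all-gene median, and the differences among them were not tested.

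A few matrix genes were among the strongest rises. *Ltbp4*, which binds latent TGF-β and assists elastic fibre assembly, averaged 0.417 (0.285 to 0.589) at E11 against 0.0500, 0.0575 and 0.109 (log2 1.58 and 1.83). *Eln*, which encodes elastin, averaged 0.483 (0.340 to 0.665) against 0.175, 0.0920 and 0.125 (1.40 and 1.66). For *Ltbp4* 2 cells held 21.9% of the E11 transcripts and for *Eln* 40.5%, so *Eln* rested on fewer cells. The growth factor receptor *Fgfr1* averaged 0.757 against 0.25, 0.368 and 0.25 (1.09 and 1.36). *Fbln2*, a fibulin gene, gave 1.35 and 1.56 with 60% of its transcripts in 2 cells, and *Zfp69*, which encodes a zinc finger protein, 1.06 and 1.31. The matrix list as a whole had medians of 0.10 and 0.35, with 1 of 19 members past the filter at least 2-fold higher on the full-table scale (1.5% of all genes) and 3 of 20 on the shared-gene scale (2.81%).

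**Figure D2:**
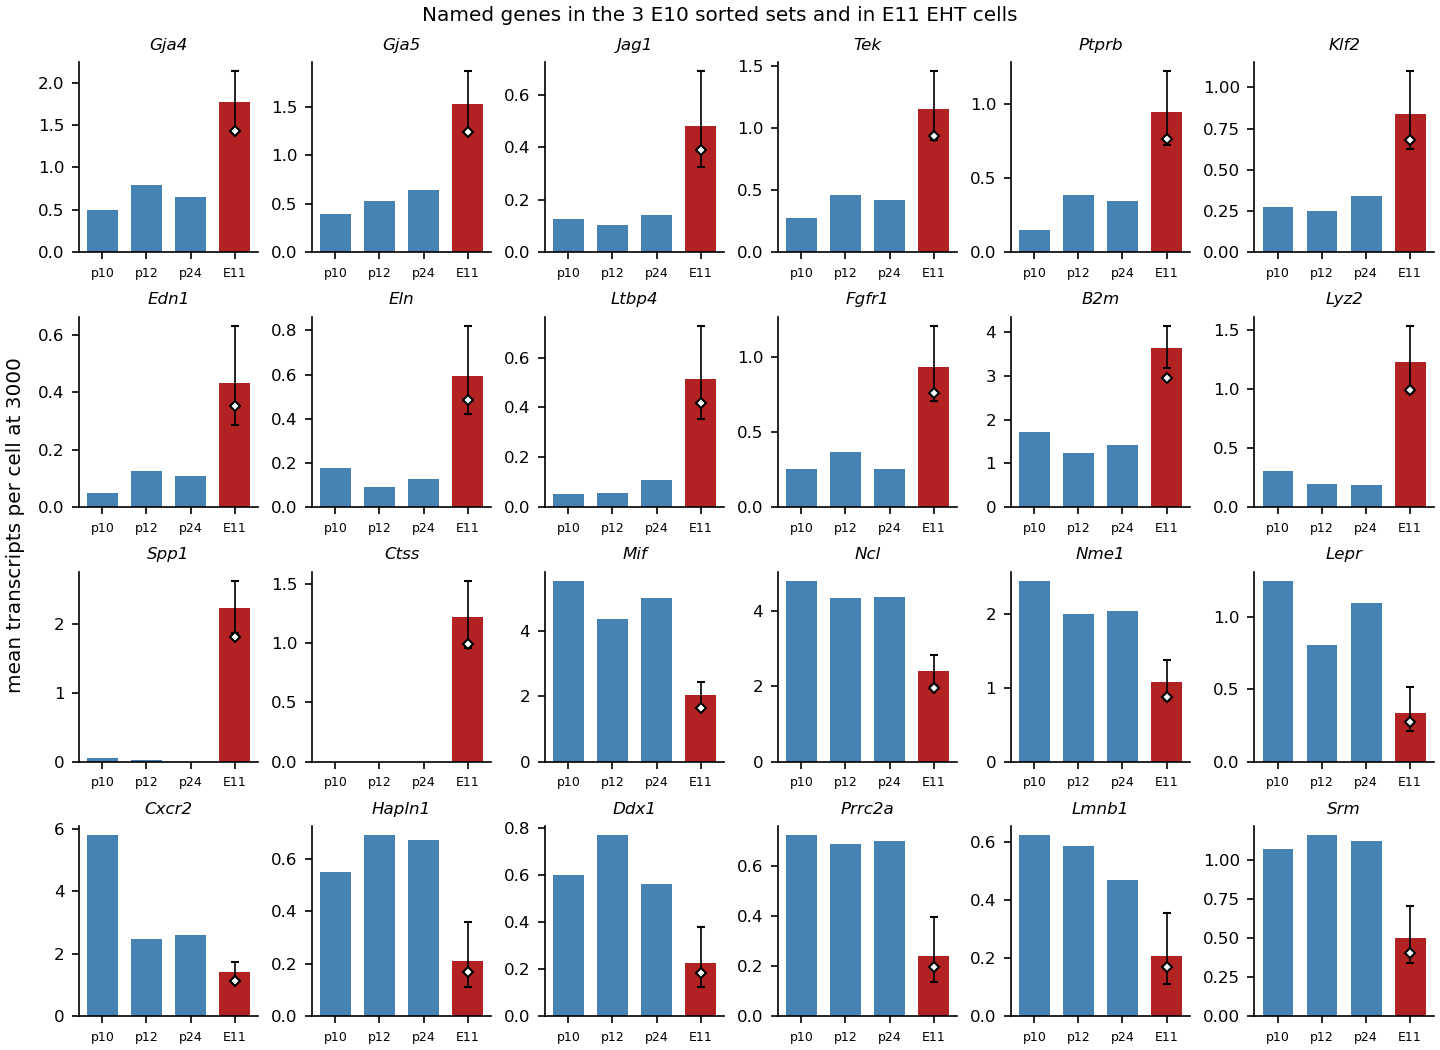
Mean transcripts per cell of named genes in the sorted sets p10, p12 and p24 (E10) and p13 (E11), with E11 as a bar on the shared-gene scale, its exact 95% counting interval, and a diamond on the full-table scale. The arterial and vascular genes lie above all 3 E10 sets under both scales, and genes such as *Mif*, *Lepr* and *Ncl* lie below them.

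Balance between endothelial and haematopoietic transcripts was read cell by cell. Cells leaving the aortic wall trade endothelial for blood transcripts, so a later sample could hold cells further along or less far along. Endothelial genes took 1.02% (0.979 to 1.07) of shared-gene transcripts at E11 and 0.674% (0.653 to 0.696) at E10, log2 0.60, or 0.30 on the full-table scale. Haematopoietic genes took 1.24% (1.19 to 1.29) and 1.10% (1.07 to 1.13), log2 0.17, a direction that turned to −0.13 on the full-table scale. Their ratio does not depend on the scale, and endothelial transcripts stood higher relative to haematopoietic ones at E11. Of the 46 E11 cells, 14 (30.4%, 17.7 to 45.8) held more endothelial than haematopoietic transcripts, and of the 191 E10 cells 35 (18.3%, 13.1 to 24.6). Per set the share was 20% in p10, 20.7% in p12 and 14.1% in p24. In HE it was 97.8% at E11 and 94.9% at E10, and in IAHC 9.95% and 6.85%. The EHT cells of both days therefore sat far nearer to IAHC than to HE. Their share was somewhat higher at E11, with counting intervals that overlap, as it also was in HE and IAHC.

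**Figure D3:**
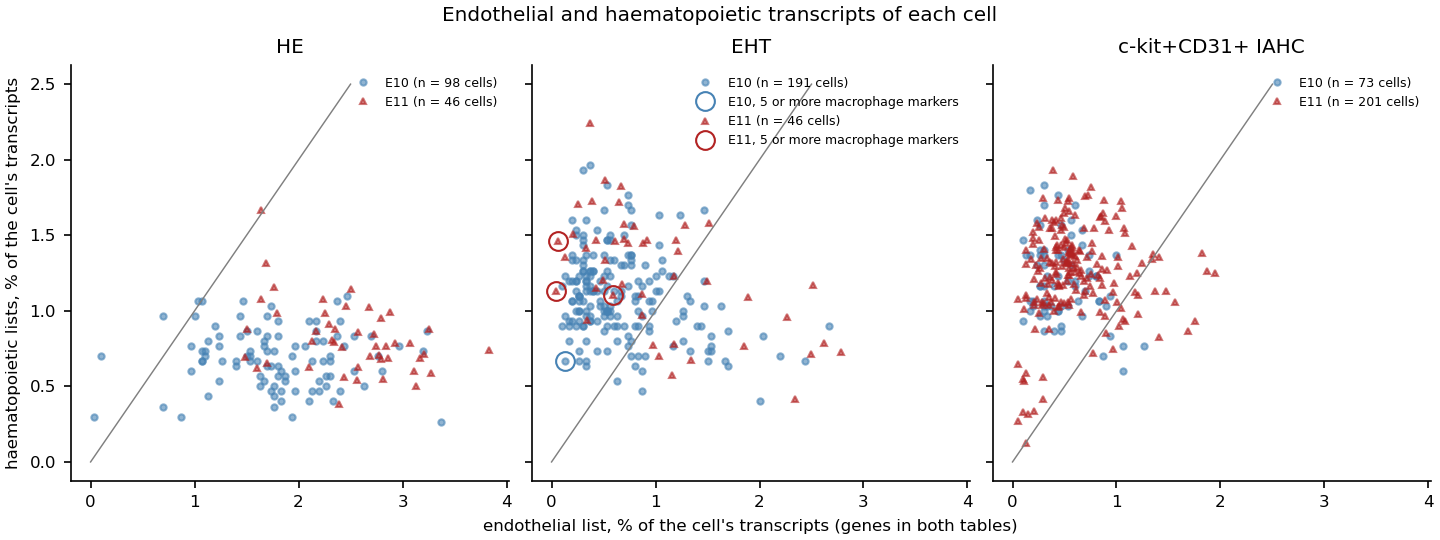
Share of endothelial and of haematopoietic genes in the shared-gene transcripts of single HE, EHT and IAHC cells, with a line where both are equal. Most EHT cells of both stages lie on the haematopoietic side, as IAHC cells do, and HE cells lie on the endothelial side. Open circles mark EHT cells with at least 5 macrophage markers.

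The arterial list was also read on each side of that balance. Among cells with more endothelial transcripts (14 at E11, 35 at E10) the arterial list, less its 1 member that is also an endothelial or haematopoietic list gene, summed to 21.2 and 14.6 per cell on the shared-gene scale, log2 0.54 (0.35 to 0.73). Among the other cells (32 and 156) it summed to 3.92 and 2.37, log2 0.73 (0.46 to 1.00). The list was thus higher at E11 on both sides. The sides were drawn with endothelial transcripts, which themselves differed between the days, so a change in the mixture of cells and a change within cells cannot be told apart. On the shared-gene scale *Gja5* gave 1.28 in the haematopoietic group and 0.71 in the endothelial one, and *Gja4* 1.28 and 0.56. *Eln* (0.25 and 2.49), *Klf2* (0.51 and 1.51) and *Jag1* (0.52 and 1.38) had larger ratios in the endothelial group, a difference that was not tested. On that scale *Kit* averaged 0.153 at E11 and 0.543 at E10 in the endothelial group (−1.34), and gave 0.22 in the other. The value of −1.34 rests on very few E11 transcripts, and the sides were drawn with haematopoietic transcripts as well.

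Transcription factors of emerging blood cells stayed within the 2-fold bound, as most genes did. *Runx1*, required for the transition, averaged 0.496 at E11 and 0.733 at E10 (log2 −0.48 and −0.23). *Gata2* (0.10 and 0.37) and *Myb* (−0.11 and 0.16), which act in stem and progenitor cells, and the adhesion receptor *Gpr56* (−0.21 and 0.09) stayed within the 2-fold bound. The pan-leukocyte phosphatase *Ptprc* was rare on both days, at 0.0913 and 0.0890. The 22 blood transcription factors past the filter, of 24 listed, had a median of −0.08 on the full-table scale that turned to 0.19 on the shared-gene scale. Of 39 surface and signalling genes, the 21 past the filter on the full-table scale had a median of −0.12, and the 22 on the shared-gene scale 0.17. Both lists lay somewhat above the all-gene median on both scales, the surface genes in 17 of 17 settings and the factors in 16. Settings that only change the scale could hardly alter this. No factor passed the fold. Few genes did in general (1.5% higher and 3.17% lower, or 2.81% and 1.12% on the shared-gene scale), so this count says little.

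Genes of growth and division were lower at E11. Ribosome assembly, DNA replication and glycolysis are high in expanding progenitors, and many of their genes are targets of MYC proteins. *Ncl*, which encodes the nucleolar protein nucleolin, averaged 1.96 transcripts per cell (1.66 to 2.30) at E11 and 4.80, 4.34 and 4.38 in p10, p12 and p24 (log2 −1.15 and −0.86). *Npm1*, another abundant nucleolar gene, averaged 6.25 (5.70 to 6.83) against 11.1, 12.9 and 13.6 (−1.02 and −0.72). Outside the list described here, the spermidine synthase *Srm* averaged 0.404 against 1.07, 1.16 and 1.12 (−1.29 and −1.04), and the nucleoside diphosphate kinase *Nme1* 0.874 against 2.45, 2.00 and 2.03 (−1.18 and −0.90). *Mycn*, the MYC family gene itself, did not move with them (−0.08 and 0.21). The 31 ribosome-assembly and MYC-linked genes summed to 19.1 transcripts per cell at E11 and 35.0 at E10, or 23.6 at E11 on the shared-gene scale. Of the 27 past the filter 23 lay below 0 on that scale, where the all-gene median was −0.02. The list medians were −0.62 and −0.44. The list thus fell below the all-gene median on both scales, while 3 members passed the fold on the full-table scale (3.17% of all genes) and 0 on the shared-gene scale (1.12%).

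The replication genes behaved in the same way. *Mcm3*, part of the replicative helicase, averaged 0.443 and 1.06 (log2 −1.09 and −0.84), the nucleotide hydrolase *Dut* gave −1.0 and −0.74, and *Chaf1b*, which loads histones on new DNA, gave −1.14 and −1.0. *Pcna*, the polymerase clamp, was nearer the general shift (−0.53 and −0.24). The 37 genes of S phase summed to 11.8 per cell at E11 and to 19.4, 23.2 and 18.7 in the E10 sets. On the shared-gene scale the E11 sum was 14.5, and 30 of the 33 past the filter lay below 0 (all-gene median −0.02). At least 2-fold lower were 6 of 33 on the full-table scale (3.17% of all genes) and 2 on the shared-gene scale (1.12%). Genes of mitosis summed to 9.74 at E11 (12 on the shared-gene scale) and to 17.5, 15.9 and 12.3, so p24 was close to E11 in this respect. Of the 27 mitotic genes past the filter, 2 were at least 2-fold lower on the full-table scale and 1 on the shared-gene scale. *Bub1b*, a spindle checkpoint kinase, gave −1.21 and −1.08, and the lamin gene *Lmnb1*, lost from senescent cells, −1.28 and −1.08. Among glycolytic genes *Gapdh* averaged 5.78 against 11.2, 9.46 and 10.3 (−0.80 and −0.50), and *Hk2*, which encodes a hexokinase, gave −1.19 and −1.07. The glycolytic list summed to 15.8 and 26.8, or 19.5 at E11 on the shared-gene scale, with 1 of 14 members past the fold on each scale. Transcripts of replication and glycolysis thus took a smaller share at E11 than in each E10 set.

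**Figure D4:**
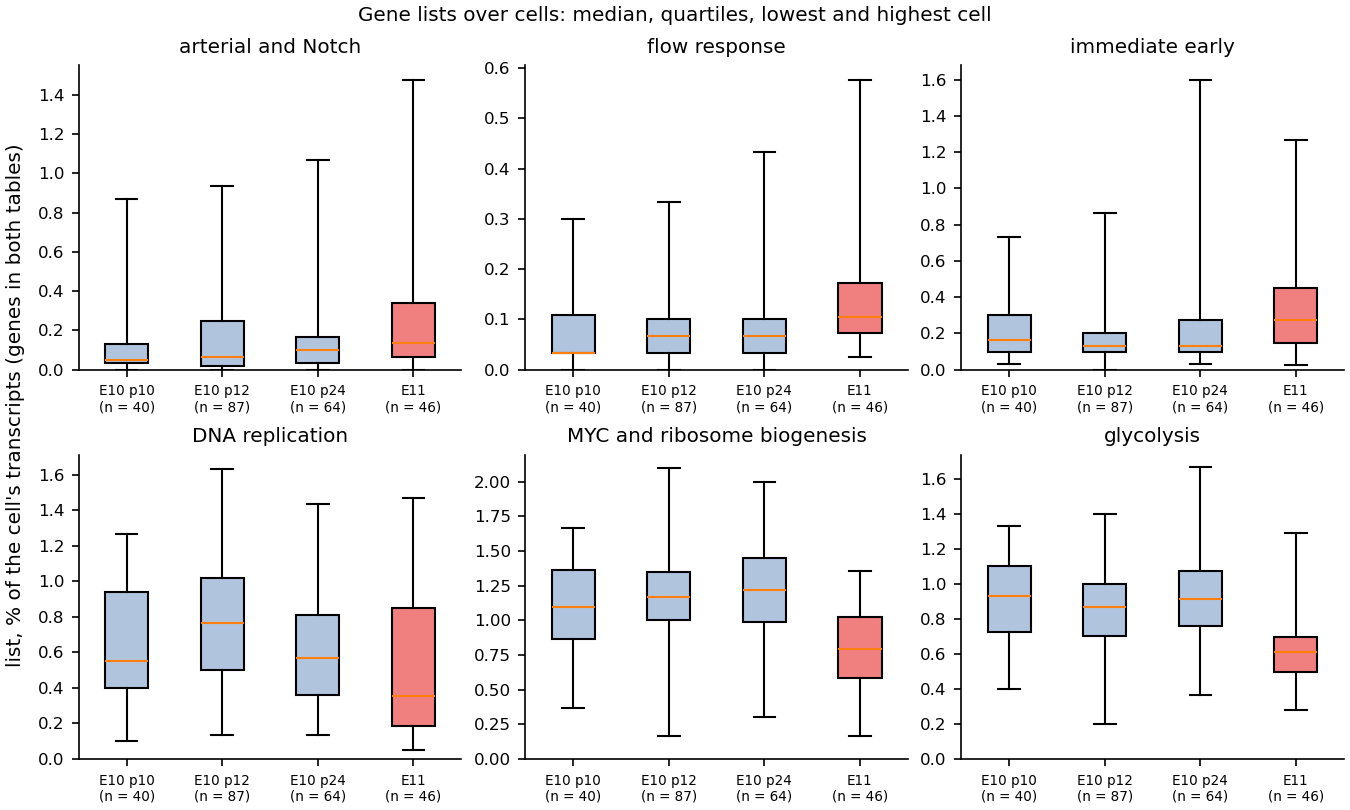
Share of each cell's shared-gene transcripts held by 6 gene lists, by sorted set. The median cell at E11 gives more to arterial, flow-responsive and immediate early genes and less to S phase, ribosome-assembly and glycolytic genes, and the ranges overlap. Boxes give the median and quartiles over cells, and whiskers the lowest and highest cell.

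The lower share was a feature of typical cells. The median cell gave 0.353% of its shared-gene transcripts to S phase genes at E11 and 0.550%, 0.767% and 0.567% in p10, p12 and p24. For ribosome assembly the medians were 0.795% against 1.10%, 1.17% and 1.22%, and for glycolysis 0.613% against 0.933%, 0.867% and 0.917%. In cells with more endothelial transcripts the ribosome-assembly list, without members shared with the endothelial and haematopoietic lists, changed by −0.69 and the S phase list by −0.58 on the shared-gene scale. In the other cells the values were −0.51 and −0.45. These lists were thus lower on both sides of the balance, whereas the mitotic list gave 0.00 in the endothelial group and −0.43 in the other.

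Other genes were also lower at E11, and whether they share a pathway was not tested. *Lepr*, the leptin receptor, averaged 0.274 (0.170 to 0.419) at E11 against 1.25, 0.805 and 1.09 in the E10 sets (log2 −1.55 and −1.32), and was detected in 32.6% of thinned E11 and 55.0% of E10 cells. *Mif*, a secreted cytokine, averaged 1.66 (1.38 to 1.97) against 5.55, 4.38 and 5.0 (−1.49 and −1.20), and was the most abundant of the clear falls. *Hapln1*, which links hyaluronan to proteoglycan, averaged 0.170 against 0.550, 0.690 and 0.672 (−1.48 and −1.29). The RNA-binding genes *Prrc2a* (−1.44 and −1.23) and *Ddx1* (−1.44 and −1.23) and the mitochondrial ribosome gene *Mrpl51* (−1.28 and −1.09) were lower against each set under both scales. *Cxcr2*, a chemokine receptor, averaged 1.13 against 5.80, 2.48 and 2.59 (−1.42 and −1.14), with p10 far above the rest. *Dlk1*, an imprinted Notch-like ligand, averaged 0.0522 against 0.575, 0.299 and 0.281 (−1.57 and −1.46). *Ube2s*, a ubiquitin-conjugating enzyme of mitosis, gave −1.29 and −1.08. *H19*, another imprinted gene and among the most abundant, stood at 19.4 and 15.5 (0.33 and 0.63). These falls passed the fold against all 3 E10 sets on the full-table scale, but on the shared-gene scale those of *Cxcr2* and *Ube2s* did not.

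Immediate early genes as a list were higher at E11. They respond within minutes to growth factors, flow and also to tissue dissociation, and the share of each was not tested. *Egr1* averaged 0.365 at E11 and 0.0750, 0.172 and 0.0781 in the E10 sets (log2 1.08 and 1.32). In cells with no more endothelial than haematopoietic transcripts it gave 1.35 on the shared-gene scale. That value fell to 0.77, below the fold, without the macrophage-rich cells described below. *Fos* averaged 0.430 and 0.204 at E11 and E10 (0.80 and 1.05) and *Jun* 1.53 and 0.990 (0.58 and 0.86). Neither reached the fold on the full-table scale, nor did *Jun* on the shared-gene scale. The list of 26 summed to 8.44 and 6.08 (10.4 at E11 on the shared-gene scale), with medians of 0.56 and 0.73. Of its members past the filter, 2 of 14 were at least 2-fold higher on the full-table scale (1.5% of all genes). On the shared-gene scale 6 of 16 were (2.81%). The median cell gave 0.273% of its shared-gene transcripts to them at E11 against 0.167%, 0.133% and 0.133%, so the rise was spread over cells, and it was found in the other populations too.

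Macrophage-type genes gave the largest ratios, and these came from very few cells. *Spp1*, which encodes osteopontin, had 138 transcripts in E11 cells and 4 in E10 cells (log2 3.97 and 4.26), of which 130 lay in the cells rich in macrophage markers. The protease gene *Ctss* had 76 and 0 (3.45 and 3.73), the lectin gene *Lgals3* 78 and 2 (3.34 and 3.62), and the chemokine gene *Ccl2* 44 and 0 (2.75 and 3.01). The class II antigen gene *H2-Aa* (2.57 and 2.83) and the chemokine genes *Cxcl1* (2.44 and 2.71) and *Cxcl2* (2.57 and 2.84) behaved alike. Counted with 14 markers, 3 of 46 E11 cells (6.52%, 1.37 to 17.9) and 1 of 191 E10 cells (0.524%) held at least 5 of them. Of the 14, *C1qa*, *Cx3cr1* and *Mrc1* had no transcript in any E11 EHT cell. The cells are called macrophage-rich by this count alone. In 2 of the E11 cells there were 38 and 59 marker transcripts and neither *Cdh5* nor *Kit*. The third held 6 marker transcripts, 1 of *Kit*, 1 of *Ctss* and no *Spp1*. Without these cells *Spp1* fell to 0.81 and 0.98, *Ctss* to 0.50 and 0.60, *Lgals3* to 0.50 and 0.61, and *Ccl2* to 0.00. Their rises therefore describe at most 3 sorted cells, for *Spp1* mainly 1, and not EHT cells in general. The sort on Cdh5 and c-kit should leave macrophages out, and how these cells came to be sorted was not tested.

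Removal of those cells also lowered, without abolishing, several broader rises. The lysozyme genes *Lyz2* (1.79 and 2.07 with the cells, 1.23 and 1.5 without) and *Lyz1* (1.68 and 1.96, then 1.03 and 1.31) stayed past the fold. *Lyz2* was detected in 39.1% of thinned E11 and 17.8% of E10 cells. The antigen-presentation genes *B2m* (1.02 and 1.32, then 0.20 and 0.49), *H2-K1* (1.12 and 1.41, then 0.35 and 0.62) and *H2-D1* (1.56 and 1.85, then 0.52 and 0.80) no longer reached it. The cathepsin gene *Ctsb* went from 1.66 and 1.95 to 0.76 and 1.04. Lysosomal genes as a list went from medians of 0.53 and 0.80 to 0.05 and 0.32. Vascular genes were unaffected, with *Gja5* at 1.15 and 1.44, *Tek* at 1.10 and 1.38 and *Klf2* at 1.08 and 1.36 without the cells. The number of genes higher against each E10 set fell from 38 to 12 on the full-table scale and from 72 to 35 on the shared-gene scale.

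Across gene lists, medians were set against the all-gene median of the same setting. Of 40 lists with members past the filter, 18 had medians above it in each setting run, 10 below it, and 12 were mixed. A change of scale or centring moves both medians in nearly the same way, so such settings could hardly change a list's side. The 18 include a sex-linked list with 1 member past the filter on each scale and an other-tissue list with 2. Those above included the arterial, flow-responsive, junction, endothelial, immediate early, lysosomal and matrix lists. Those below included S phase, mitosis, ribosome assembly, glycolysis, proteasome (−0.49 and −0.24), respiratory chain (−0.46 and −0.18) and translation factors (−0.41 and −0.12). The last lists lay close to the general shift. The TGF-β and BMP list (−0.16 and 0.32) and the VEGF and angiopoietin list (−0.03 and 0.25) turned sign with the scale and stayed above the all-gene median of each.

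**Figure D5:**
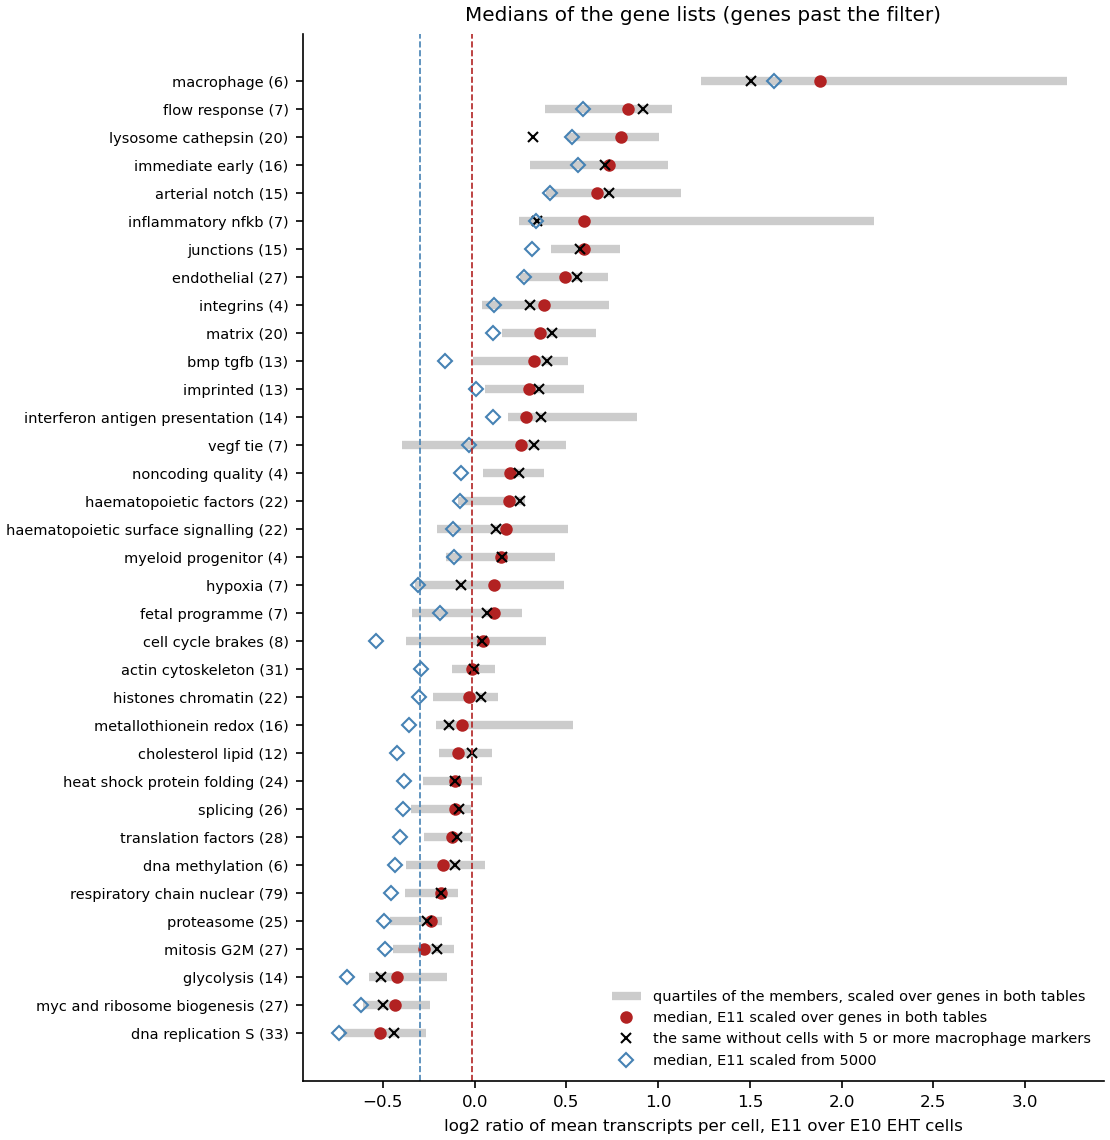
Median log2 ratio of E11 to E10 for each gene list, on the full-table scale (diamonds) and the shared-gene scale (filled circles), for lists with at least 4 members past the filter. Crosses leave out the macrophage-rich cells, grey bars give the quartiles of the members, and dashed lines give the all-gene median of each scale. Lists near the all-gene median change sign between the scales, while macrophage and flow-responsive lists stay above 0 and S phase, ribosome-assembly and glycolytic lists below it.

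The other populations were compared between the same tables. The E10 HE cells were all named for the day between E10 and E11, as were those of p24 among the EHT sets. HE and most EHT cells thus started from different named days. The E11 HE and EHT cells were both named late E11, whereas the names of IAHC and YS cells carry no such word at either stage. HE shares strain and genotype with the EHT cells, whereas IAHC and YS cells came from another strain and were not selected on *Gfi1*. Of the 72 genes higher in EHT cells against each E10 set on the shared-gene scale, 40 passed the filter in HE and 18 of them the fold in the same direction, where 3.94% of genes did so in general. In IAHC 3 of 22 passed (1.17% in general) and in YS 1 of 10 (2.87%). On the full-table scale 5 of 18 did so in HE (2.36% in general), 0 of 7 in IAHC (0.425%) and 0 of 5 in YS (0.964%), where 1 passed it the other way. Of the 72 rises, 37 had at least 50% of their E11 transcripts in 2 cells and 30 were kept without the macrophage-rich cells (24 and 10 of the 38), so genes resting on few EHT cells weigh on these counts. The genes past the filter also differed between populations, and the difference between populations was not tested. On the shared-gene scale *Ltbp4* (1.92), *Eln* (4.36), *Klf2* (1.38), *Ptprb* (1.29), *Jag1* (1.07) and *Tek* (1.00) were higher in HE at E11. The all-gene median in HE was −0.01 on this scale and −0.22 on the full-table scale, where values near the fold may not pass it. *Gja5* (0.09) and *Gja4* (0.40) were not past the fold there. *Klf2* was higher in IAHC as well (1.93) and not in YS (0.13). On the shared-gene scale the arterial list summed to 31.5 and 23.3 at E11 and E10 in HE, 2.74 and 1.62 in IAHC and 0.834 and 0.426 in YS. Flow-responsive genes summed to 12.3 and 5.96 in HE, 2.68 and 1.64 in IAHC and 0.799 and 0.482 in YS. Endothelial genes gave 74.8 and 53.7, 18.5 and 14.6, and 6.33 and 2.96, and immediate early genes 16.2 and 9.37, 9.95 and 5.78, and 3.6 and 1.81. On this shared-gene scale the lists were thus higher at E11 in each population, including the 1 outside the AGM, and stage and table cannot be told apart for them. On the full-table scale endothelial genes in IAHC turned to slightly lower, at 0.477% of transcripts against 0.487%.

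Among the AGM populations the fall of growth genes, as a ratio of E11 to E10, was widest in HE. On the shared-gene scale S phase genes summed to 5.13 per cell at E11 and 16.3 at E10 in HE, and to 20.6 and 23.7 in IAHC. Mitotic genes summed to 5.4 and 15.0 in HE and to 16.3 and 17.0 in IAHC. Ribosome-assembly genes summed to 10.4 and 17.9 in HE and to 28.7 and 36.5 in IAHC. Glycolytic genes summed to 10.7 and 18 in HE and to 24.5 and 25.8 in IAHC. In YS S phase genes stood at 26.1 and 26.2, mitotic genes at 20.3 and 25.6, and ribosome-assembly genes at 40.9 and 53.6. Glycolytic genes did not fall there, at 39.7 and 39.1. As a ratio of E11 to E10, the fall of these lists in EHT cells lay between those of the other AGM populations. *Ncl* gave −0.86 in EHT and in HE, −0.61 in IAHC and −1.13 in YS. *Mif* gave −0.94 in HE, −0.53 in IAHC and −0.04 in YS, and *Lepr* −1.55 in IAHC and in YS and −0.54 in HE. *Cxcr2* gave −0.39 in HE, −1.95 in IAHC and −1.67 in YS. Of the 14 genes lower in EHT cells against each E10 set on the shared-gene scale, 1 of 9 past the filter passed the fold in HE (3.11% in general), 1 of 12 in IAHC (0.914%) and 1 of 10 in YS (2.19%), where 1 more passed it the other way. On the full-table scale the counts were 6 of 22 in HE (5.19%), 3 of 28 in IAHC (2.46%) and 4 of 28 in YS (6.96%, with 2 the other way). The YS cells are not of the AGM, so falls found there too cannot be told apart from differences between the tables.

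Across the 2 days, EHT cells of the same sorted phenotype carried more arterial and flow-responsive transcripts at E11 and fewer transcripts for replication, ribosome assembly and glycolysis. On the shared-gene scale these lists kept their directions in the median cell against each E10 set, without the macrophage-rich cells, and on both sides of the endothelial and haematopoietic balance. Blood transcription factors stayed within the 2-fold bound, as most genes did, with a median slightly above that of all genes on both scales. The arterial and flow-responsive lists were higher at E11 in HE, IAHC and YS cells as well. The largest single ratios described at most 3 cells rich in macrophage markers, and that of *Spp1* mainly 1 cell.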

How the data were processed

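Processed single-cell tables deposited by the authors were used, holding estimated count values to which 0.1 had been added per gene and cell; 0.1 was subtracted. Reads had been mapped to mm10 with BWA 0.6.2-r126 according to the submitters' processing notes; the annotation is not given in the sources used here. The comparison took 237 EHT columns, with HE, IAHC and YS columns beside it; 279 columns were not used. Non-HE cells were not compared because their columns could not be mapped to a sample, a departure from the design, as is the absence of ribosomal protein genes from the E10 table. Settings: filter 0.2 transcripts per cell on either side, pseudocount 0.1, fold 2, seed 11. The shared-gene scale was chosen after seeing the data. Genes named are at most the 12 largest and 12 smallest ratios past the fold against each E10 set, on each scale. On the full-table scale 3 genes met the rule for rises, and on the shared-gene scale 6 met that for falls. Genes resting on 2 cells, list members past the fold and sort markers were named too. Further list members were added after seeing the data for contrast. Members and lists were chosen with earlier results of these data known. Code was tested on simulated data. Python 3.11.15, numpy 2.4.6, scipy 1.17.1, pandas 2.3.3, matplotlib 3.10.9.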

Additional observations from a re-analysis of the deposited data

Results flagged for a closer look

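The E11 table lists 102 genes that the E10 table lacks, and these genes, which lie outside the comparison, took 18.9% of the transcripts of E11 EHT cells. It was flagged because so large a share in genes listed at a single stage changes what scaling to equal totals means for the shared genes. Each of the 102 has a name that begins with *Rpl* or *Rps*, and most encode ribosomal proteins. The E10 table lists no gene with such a name, so whether ribosomal protein transcripts differ between the days could not be examined.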

How the results depend on the processing

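No paired analysis was possible because each stage is 1 sample and the result comes from no test. The count of genes higher at E11 (58) was 101 with a pseudocount of 0.02 and 10 with 0.5, 24 with a filter of 0.5, 30 without macrophage-rich cells, 116 after centring on the median, 118 on the total without ribosomal protein genes, 24 without the top 5% of cells, 160 with a fold of 1.5, 118 on the shared-gene scale and 128 when thinned over shared genes. Leaving out 1 E10 set gave 58 to 68. The shared genes hold no gene with a name beginning *Rpl* or *Rps*. The total without ribosomal protein genes thus nearly repeats the shared-gene scale and is no separate check. The count of lower genes (122) was 214 when thinned to 3000, 392 and 4 with the pseudocounts, 48 with the filter, 19 after centring, 47 on the total without ribosomal protein genes, 861 with the lower fold, 47 on the shared-gene scale, 47 there without macrophage-rich cells and 70 when thinned over shared genes. Leaving out 1 set gave 139 to 162. The count higher against each set (38) was 7 with a pseudocount of 0.5, 13 with the filter, 12 without macrophage-rich cells, 69 after centring, 72 on the total without ribosomal protein genes, 91 with the lower fold, 72 on the shared-gene scale and 70 when thinned over shared genes, and 42 to 49 with a set left out. The count lower against each set (34) was 82 when thinned, 139 and 1 with the pseudocounts, 15 with the filter, 4 after centring, 14 on the total without ribosomal protein genes, 351 with the lower fold, 14 on the shared-gene scale, 13 there without macrophage-rich cells and 21 when thinned over shared genes, and 63 to 68 with a set left out, where fewer sets had to be passed. The endothelial log2 ratio (0.30) was 0.60 on the total without ribosomal protein genes and on the shared-gene scale. It was 0.68 there without macrophage-rich cells, 0.56 when thinned over shared genes and 0.28 when thinned to 3000. In the same order the haematopoietic ratio (−0.13) was 0.17, 0.17, 0.17, 0.18 and −0.08. Lists above the all-gene median numbered 25 of 40, and 24 to 27 over the settings. EHT rises past the fold in HE numbered 5, and 18 on the shared-gene scale. The share of cells with a gene detected differed by −5.77 percentage points in the median when thinned to 3000, by 5.15 at 5000 transcripts and by −1.30 when thinned over shared genes. Without macrophage-rich cells *Cd68* turned to −0.09 (−0.05 on the shared-gene scale) and *Cxcl2* to −0.32 (−0.28). Of 89 named genes, 45 kept their value and direction in each setting, as did 16 of 40 list medians.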
